A study of Tabanus nipponicus with 3 samples.

Results

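Proteins that a gut cell secretes enter the endoplasmic reticulum (ER), fold there and leave in transport vesicles, and the unigenes named for these steps were measured in the midgut of the horse fly Tabanus nipponicus. A unigene is a transcript assembled from reads without a genome. Members were the unigenes whose first listed protein title held any of 19 words, among them Sec61, signal peptidase, protein disulfide-isomerase, coatomer and golgin. There were 64 members among 8039 unigenes. The RNA was that of 3 adult females of wild-type genotype, caught in the wild and dissected under sterile conditions, with 1 library per animal, here called fly 1, fly 2 and fly 3. They form 1 group with no treatment, so levels and differences between individuals can be described, but no conditions compared. The labels give neither age nor feeding state nor collection day.

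A secretory protein is recognised as it leaves the ribosome by the signal recognition particle, passes through the Sec61 channel, loses its signal peptide to signal peptidase and can receive sugar chains from oligosaccharyltransferase. Calreticulin, calnexin, endoplasmin and protein disulfide-isomerases assist folding. Vesicles with a COPII coat then carry cargo towards the Golgi apparatus, vesicles with a COPI coat (coatomer) return escaped ER proteins and cycle Golgi enzymes, and tethers and SNARE proteins dock and fuse the vesicles. An insect midgut uses this route to release digestive enzymes into the gut lumen and to build the brush border.

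Of the 19 words, 3 matched no first title, namely Sec62, transmembrane emp24 and KDEL. Names can differ between databases, so these proteins were not analysed here. The 64 members fell into 8 role classes. Protein entry had 11 members, signal peptidase 3, oligosaccharyltransferase 1, folding 8, coatomer 8, ADP-ribosylation factors and their relatives 13, COPII 2, and tethers with SNAREs 18. Searching every listed title in place of the first gave the same number, 64.

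Each unigene carries the name of its best protein hit in another species, with 17 species among the members. The black soldier fly Hermetia illucens supplied 38 of the 64. Identity to that protein ran from 35.6% for golgin subfamily A member 2 to 99.4% for ADP-ribosylation factor-like protein 5B, with a median of 79.6% against 65.5% over all unigenes with a hit. The alignment covered a median of 97.3% of the best-hit protein, against 84.4% over all such unigenes. Member unigenes were 679 to 7509 bases long, with a median of 1739 bases against 1831 over all.

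Levels are given in FPKM, read numbers scaled to transcript length and library size, a unit in which unigenes of different length can be compared within a fly. Together the members' share of summed FPKM was 0.936%, 0.820% and 0.727% in flies 1, 2 and 3, averaging 0.828% ± 0.105 (SD, n = 3). As a share of reads, which weights long unigenes more, the mean was 1.01%. The median member stood at 24.4 FPKM and the median unigene at 8.69. An FPKM of at least 1 in all 3 flies was reached by 62 of 64 members, where 81.6% of all unigenes reached it. Above the median of all unigenes lay 55 members, against a background of 50.0%, and 18 were in the top 10% of the table, against 9.99%.

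Folding and entry carried most of the signal. The 8 folding members summed to 2389, 1886 and 1604 FPKM in flies 1, 2 and 3, and the 11 entry members to 1780, 1803 and 1575. Signal peptidase summed to 596, 493 and 422 FPKM. ADP-ribosylation factors and their relatives came to 403, 400 and 434 FPKM, coatomer to 302, 258 and 253, tethers and SNAREs to 262, 211 and 254, and the pair of COPII members to 98.3, 113 and 76.2. Folding, signal peptidase and coatomer were highest in fly 1 and lowest in fly 3, while entry and COPII were highest in fly 2. These orders were the same after median-of-ratios scaling, which sets the typical unigene equal in all flies. Protein disulfide-isomerase and calreticulin, averaging 811 and 745 FPKM, made up most of the folding sum. Of the 8 folding members, 5 were lowest in fly 2 and 3 in fly 3 as deposited, where 56.9% and 15.9% of all unigenes were. After scaling 1 and 7 were, against 32.9% and 38.0%. In whole midguts, fewer cells of a type and less RNA per cell cannot be told apart. Means with SD (n = 3) were 1959 ± 398 FPKM for folding, 1719 ± 126 for entry, 504 ± 88.0 for signal peptidase, 412 ± 19.0 for ADP-ribosylation factors and 271 ± 27.0 for coatomer.

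**Figure D1:**
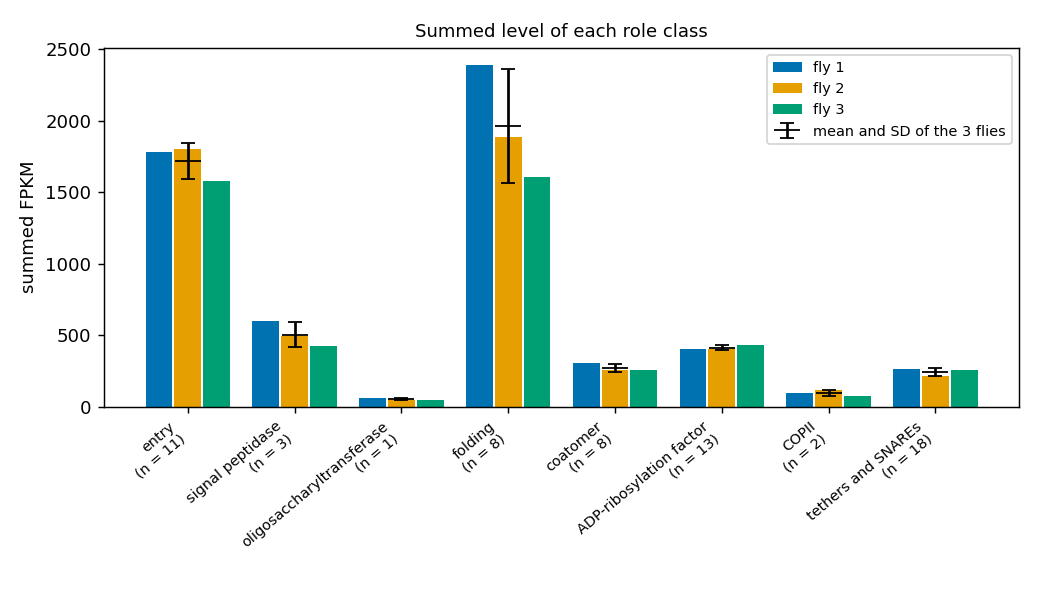
Bars show the summed FPKM of each role class in flies 1, 2 and 3, and the black marks show the mean and SD of the 3 flies, with the number of member unigenes under each class. Folding, at 2389, 1886 and 1604 FPKM, and entry, at 1780, 1803 and 1575 FPKM, stand above the other classes in every fly.

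At the entry step, the 4 subunits of the translocon-associated protein complex, which sits beside the Sec61 channel, were all present at unequal levels. Subunit gamma (TRINITY_DN10731_c0_g1_i2) was at 528, 506 and 469 FPKM in flies 1, 2 and 3, or 501 ± 29.9 (SD, n = 3). Subunit beta (TRINITY_DN6298_c0_g1_i4) was at 393, 479 and 306 FPKM. Subunit delta (TRINITY_DN4209_c0_g1_i1) stood at 135, 142 and 107 FPKM and subunit alpha (TRINITY_DN660_c0_g1_i1) at 76.1, 86.9 and 72.2. Subunit gamma was thus 6.94-fold, 5.82-fold and 6.50-fold above subunit alpha, a ratio whose SD on the log2 scale was 0.13. Each of the 4 had its lowest value in fly 3, as 15.9% of all unigenes did, and 3 of them had their highest in fly 2, as 12.3% did. After median-of-ratios scaling all 4 were lowest in fly 3, against 38.0%, and highest in fly 2, against 32.7%.

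Sec61 subunit alpha (TRINITY_DN1454_c0_g1_i9), the channel itself, had the order of subunits beta, delta and alpha, at 207, 267 and 194 FPKM, and matched its best hit at 98.5% identity. The SEC63 homolog (TRINITY_DN133_c1_g2_i5), a membrane partner of the channel that recruits an ER chaperone, was lower, at 46.2, 32.7 and 39.5 FPKM. Its lowest value was in fly 2 as deposited and in fly 3 after median-of-ratios scaling, at 47.3, 39.1 and 31.2.

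Parts of the signal recognition particle, the cytosolic complex that brings a translating ribosome to the ER, differed in level and in spread. The 14 kDa protein (TRINITY_DN15590_c0_g1_i1) was at 145, 84.3 and 166 FPKM, with a log2 SD of 0.52, the largest of the entry class as deposited. After median-of-ratios scaling it was 0.29, and the largest was 0.62 for subunit beta of the translocon-associated complex. The 54 kDa protein (TRINITY_DN6339_c0_g1_i7), which binds the signal peptide, was at 132, 105 and 129 FPKM. The subunits SRP72 and SRP68 were at 55.6 ± 11.8 and 24.6 ± 2.30 FPKM (SD, n = 3). For the beta subunit of the receptor that anchors the particle at the ER membrane (TRINITY_DN3371_c0_g1_i5) the values were 22.2, 24.1 and 23.4 FPKM. Its coefficient of variation was 4.17% as deposited, beside a counting error of the reads of 4.21%, and the spread was larger after scaling, at a log2 SD of 0.31 in place of 0.06. Fly 2 was lowest in 3 of these 5 unigenes, against 56.9% of all unigenes, and in 1 of 5 after scaling, against 32.9%.

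Signal peptidase cuts the targeting sequence off the entering chain. Its catalytic subunit SEC11A (TRINITY_DN72438_c0_g1_i1) was at 349, 258 and 242 FPKM, subunit 2 (TRINITY_DN3412_c0_g1_i2) at 180, 175 and 133, and subunit 3 (TRINITY_DN8285_c0_g1_i4) at 67.5, 60.5 and 47.4. As deposited, all 3 were highest in fly 1, as 21.3% of all unigenes were, and lowest in fly 3. After median-of-ratios scaling all 3 were still lowest in fly 3, but subunits 2 and 3 were highest in fly 2. SEC11A exceeded subunit 3 by 5.16-fold, 4.26-fold and 5.10-fold. A single oligosaccharyltransferase unigene matched, named CG9662 (TRINITY_DN2242_c3_g1_i1), at 60.9, 48.2 and 47.0 FPKM.

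Protein disulfide-isomerase (TRINITY_DN25645_c0_g1_i10), which forms and reshuffles disulfide bonds, was the most abundant member, at 896, 906 and 630 FPKM, or 811 ± 157 (SD, n = 3). It ranked 111 among 8039 unigenes. Calreticulin (TRINITY_DN10848_c0_g1_i4), a soluble calcium-binding chaperone of glycoproteins, ranked 121 and stood at 957, 667 and 610 FPKM. Calnexin (TRINITY_DN1902_c0_g1_i6), its membrane-bound relative, was at 65.2, 42.9 and 59.3 FPKM. The soluble form therefore exceeded the membrane form 14.7-fold, 15.6-fold and 10.3-fold.

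Among the other isomerases, A3 (TRINITY_DN1136_c0_g1_i3), which works with calreticulin and calnexin in vertebrates, was at 222, 139 and 130 FPKM. The A6 homolog (TRINITY_DN6711_c0_g1_i12) was at 85.2 ± 12.8 FPKM (SD, n = 3). A5 (TRINITY_DN5552_c0_g1_i9) and the membrane-bound TMX3 (TRINITY_DN5329_c0_g1_i12) were lower, at 13.4 ± 3.62 and 9.16 ± 1.85 FPKM (SD, n = 3). For these 4 isomerases fly 1 was highest, with or without median-of-ratios scaling.

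Endoplasmin (TRINITY_DN1247_c0_g1_i1), the ER member of the Hsp90 chaperones, had the largest log2 SD among members averaging 5 FPKM or more as deposited, 0.85. After median-of-ratios scaling it was 0.76, below the 0.91 of ADP-ribosylation factor (ARF) GTPase-activating protein 1. It was at 121, 36.9 and 74.6 FPKM, so that fly 1 lay 3.28-fold above fly 2. Protein disulfide-isomerase exceeded endoplasmin 7.42-fold, 24.6-fold and 8.44-fold. Fly 2 was therefore the fly with little endoplasmin but with a level of protein disulfide-isomerase near that of fly 1.

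In 7 of the 8 folding members fly 1 was highest, where 21.3% of all unigenes were highest in fly 1. The exception was protein disulfide-isomerase, for which fly 2 exceeded fly 1 by a small amount. Median-of-ratios scaling left the count at 7 of 8, against 26.1% of all unigenes. Without fly 2 it was 8 of 8 and without fly 3 it was 7 of 8. As deposited, the median difference between fly 1 and the mean of the others was 0.47 on the log2(FPKM + 1) scale for folding members and -0.05 for all unigenes averaging 1 FPKM or more.

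Other genes of ER folding and its stress response, taken from word lists that do not include the members, mostly had the same fly as highest. The main ER chaperone BiP (TRINITY_DN2889_c0_g1_i28), of the Hsp70 family, was at 630.5, 224 and 243 FPKM, so fly 1 was 2.81-fold above fly 2. The thioredoxin domain-containing protein 5 homolog (TRINITY_DN2634_c1_g1_i6), another disulfide isomerase, was at 173, 107 and 104 FPKM, and ero1-like protein (TRINITY_DN698_c0_g1_i8), which reoxidises protein disulfide-isomerase, at 33.3, 30.6 and 21.8. Of the 5 unigenes in that list, 4 were highest in fly 1, against 21.3% of all unigenes, and 3 after median-of-ratios scaling, against 26.1%. The list also caught dnaJ homolog subfamily C member 30, a mitochondrial name that contains a shorter ER name, at 15.7, 19.4 and 19.7 FPKM.

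The list of stress sensors and their targets had 6 unigenes. Fly 1 was highest in all 6 as deposited, against 21.3% of all unigenes, and in 4 of 6 after median-of-ratios scaling, against 26.1%. X-box-binding protein 1 (TRINITY_DN8492_c0_g1_i5), the transcription factor that the sensor IRE1 activates by splicing its mRNA, was at 675, 476 and 397 FPKM. FPKM of this unigene does not tell the spliced from the unspliced form. The mesencephalic astrocyte-derived neurotrophic factor homolog (TRINITY_DN5383_c0_g2_i4), a secreted ER stress protein, was at 108, 53.9 and 53.3 FPKM. IRE1 itself (TRINITY_DN4143_c0_g1_i19), at 14.9, 14.4 and 5.73 FPKM, and ATF-6 alpha (TRINITY_DN10937_c0_g2_i3), at 20.1, 16.0 and 8.48 FPKM, are added outside the naming rule because both were lowest in fly 3. They shared this with most of the list. Fly 3 was lowest in 5 of its 6 unigenes, against 15.9% of all unigenes, and in all 6 after scaling, against 38.0%. A unigene named for an eIF2-alpha kinase (TRINITY_DN5839_c1_g1_i4) stood at 23.1, 21.3 and 19.8 FPKM. The title of the remaining unigene, an eIF2-alpha kinase 1-like protein, names a cytosolic kinase in vertebrates rather than an ER sensor.

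**Figure D2:**
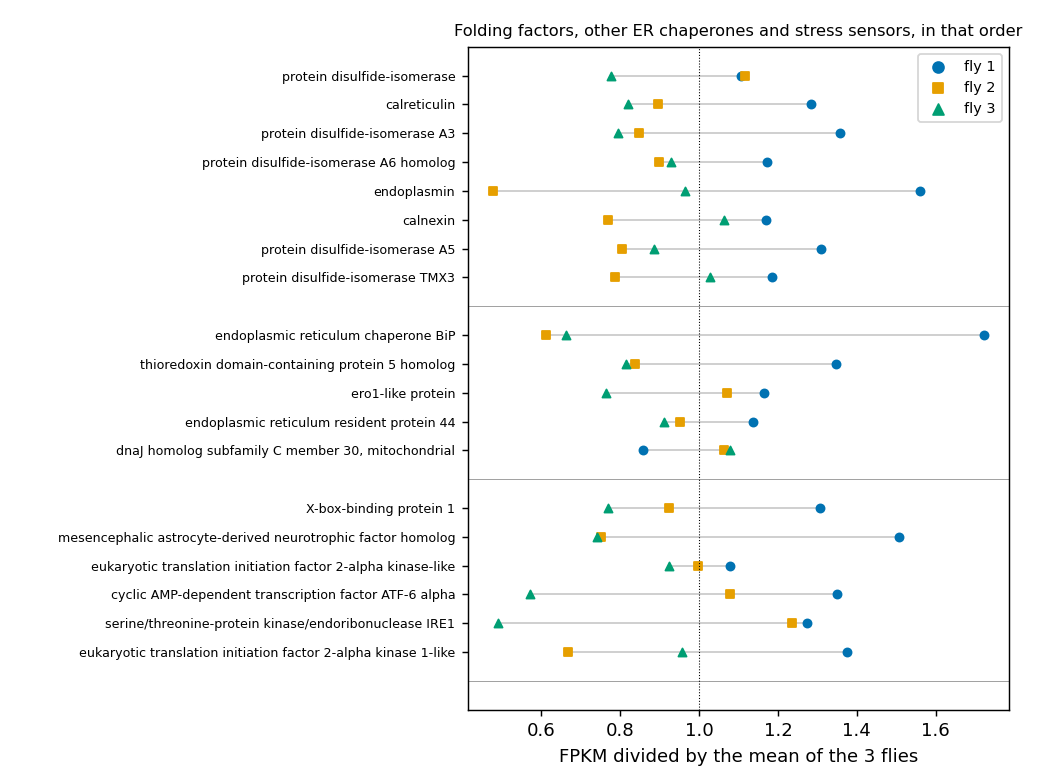
For each unigene the points give the FPKM of flies 1, 2 and 3 divided by the mean of the 3 flies, for the 8 folding members, 5 other ER chaperone names and 6 stress sensor names, from top to bottom. Fly 1 is the rightmost point for 17 of the 19 unigenes, where 21.3% of all unigenes were highest in fly 1. BiP (630.5, 224 and 243 FPKM) and endoplasmin (121, 36.9 and 74.6 FPKM) span the widest ranges. After median-of-ratios scaling, not drawn, fly 1 was highest in 7 folding members, 3 chaperone names and 4 stress sensor names, against 26.1%.

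Names of ER-associated degradation, which sends misfolded proteins back to the cytosol, gave counts near those of all unigenes as deposited. Of 6 unigenes, 2 were highest in fly 1, against 21.3%, and 4 in fly 3, against 66.5%. After median-of-ratios scaling 3, 1 and 2 were highest in flies 1, 2 and 3, against 26.1%, 32.7% and 41.1%. The fly 1 count then lay above its share, over only 6 unigenes. The ATPase TER94 (TRINITY_DN2415_c0_g1_i13), which pulls proteins out of the membrane, was at 40.2, 21.1 and 78.6 FPKM. Ubiquitin-conjugating enzyme E2 J2 (TRINITY_DN5810_c0_g1_i5) was at 20.2, 7.86 and 76.1 FPKM, a 9.68-fold range. Derlin-2 (TRINITY_DN7154_c0_g1_i28) was at 42.4, 28.5 and 50.2 FPKM.

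COPII coats were represented by the inner-coat protein Sec23A (TRINITY_DN8505_c0_g1_i11), at 69.2, 84.1 and 56.5 FPKM, and the outer-coat protein Sec31A (TRINITY_DN1264_c0_g1_i8), at 29.1, 29.1 and 19.7 FPKM. Sec23A exceeded Sec31A 2.38-fold, 2.90-fold and 2.88-fold, and for both fly 3 was lowest. A separate list of 28 other vesicle proteins summed to 841, 784 and 855 FPKM, with 11 of them highest in fly 1, 4 in fly 2 and 13 in fly 3, where 21.3%, 12.3% and 66.5% of all unigenes were. After median-of-ratios scaling these counts were 10, 11 and 7, against 26.1%, 32.7% and 41.1%. Its most abundant members were surfeit locus protein 4 homolog (TRINITY_DN3510_c0_g1_i5), an ER cargo receptor, at 181, 149 and 139 FPKM, and ERGIC-53 (TRINITY_DN2645_c0_g1_i12), a lectin that carries glycoproteins out of the ER, at 140, 156 and 70.5 FPKM. Clathrin light chain (TRINITY_DN17341_c0_g1_i6), part of the coat used after the Golgi and in endocytosis, was at 101, 98.6 and 161 FPKM, with fly 3 highest.

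The coatomer unigenes covered the 7 subunits named alpha, beta, beta', gamma, delta, epsilon and zeta. Coatomer is assembled with 1 copy of each, yet apart from beta, whose unigenes were fragments, levels per length ran from 15.2 ± 0.42 FPKM for epsilon (TRINITY_DN1329_c0_g1_i9) to 65.8 ± 4.96 for delta (SD, n = 3). The epsilon unigene aligned only to residues 89 to 286 of a best hit of 395 residues, so its level may not be that of the whole transcript. Delta (TRINITY_DN6579_c0_g1_i8) was at 70.9, 60.9 and 65.7 FPKM, zeta-1 (TRINITY_DN2537_c0_g1_i2) at 47.8, 40.8 and 39.0, and beta' (TRINITY_DN1082_c0_g1_i12) at 26.3 ± 3.24 (SD, n = 3). Gamma (TRINITY_DN2125_c0_g1_i9) was at 24.6, 23.3 and 24.6 FPKM and alpha (TRINITY_DN27952_c0_g1_i12) at 18.6 ± 2.79 (SD, n = 3).

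Delta exceeded epsilon 4.55-fold, 4.13-fold and 4.30-fold, so the inequality between these 2 unigenes, of which epsilon aligned in part only, was larger than the spread between flies. Epsilon and gamma had the smallest log2 SD among members averaging 5 FPKM or more as deposited, 0.04 for each. That depended on scaling, since after median-of-ratios scaling the values were 0.26 and 0.26, and ARF-like protein 1 had the smallest, 0.08. For epsilon the coefficient of variation was 2.73% as deposited, beside a counting error of 5.58%. Fly 1 was highest in 7 of the 8 coatomer unigenes as deposited, against 21.3% of all unigenes, and in 5 of 8 after scaling, against 26.1%.

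Subunit beta was divided between separate unigenes. The beta-like unigene (TRINITY_DN9850_c0_g1_i8), at 77.1 ± 11.7 FPKM (SD, n = 3), aligned to residues 515 to 812 of a protein of 812 residues. The other (TRINITY_DN1255_c0_g1_i5) aligned to residues 1 to 489 of a different species' protein of 954 residues and was at only 1.72, 1.36 and 1.13 FPKM, from 96, 80 and 58 reads. The assembly gives no value for the intact transcript, so neither level can be taken as that of the subunit.

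ARFs are small GTPases that recruit coats to membranes. The class was mixed, since 10 of the 13 titles name ARF-like proteins, regulators or binding partners rather than an ARF. ARF GTPase-activating protein 1 (TRINITY_DN7091_c0_g1_i18), which switches ARF off on COPI vesicles, was at 97.7, 113 and 50.3 FPKM, and GTPase-activating protein 3 (TRINITY_DN36555_c0_g2_i1) at 68.3, 58.4 and 47.2. ARF6 (TRINITY_DN953_c0_g1_i41), which acts at the plasma membrane, was at 58.0, 88.1 and 85.8 FPKM. Both unigenes titled ARF2 were lower, at 17.5 ± 2.57 and 4.86 ± 0.67 FPKM (SD, n = 3). Reads shared between similar ARF transcripts could be divided between such unigenes. Without the 10 relatives the class held 0.0157% of all FPKM in place of 0.0649%.

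Among the relatives of ARF, 4 that average above 20 FPKM had their highest value in fly 3 as deposited. ARF-like protein 8 (TRINITY_DN3078_c0_g1_i9), which acts on lysosomes, was at 22.3, 16.2 and 48.9 FPKM. ARF-like protein 1 (TRINITY_DN20290_c0_g1_i13), of the trans-Golgi, was at 57.8, 44.3 and 72.5 FPKM, but highest in fly 1 after median-of-ratios scaling, at 59.2, 52.9 and 57.3. The Golgi clathrin adaptor GGA1 (TRINITY_DN1885_c0_g1_i76) was at 24.6, 16.0 and 32.2. ARF-like protein 6-interacting protein 4 (TRINITY_DN1907_c0_g1_i24), a nuclear protein linked to splicing in mammals, stood at 19.9, 15.7 and 35.0 FPKM. In the class, 8 of 13 unigenes were highest in fly 3 as deposited, against 66.5% of all unigenes, so that count is near the background. After median-of-ratios scaling it was 4 of 13, against 41.1%.

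ARF-like protein 3 (TRINITY_DN5336_c0_g2_i1) and the ARF-like protein 2-binding protein (TRINITY_DN16539_c0_g1_i1) were the only members with a mean FPKM under 1, at 0.72 and 0.54. The former rested on 20, 2 and 54 reads and the latter on 16, 10 and 14. For the binding protein the coefficient of variation, 26.4%, lay below the counting error of 39.5%, so its differences between flies were not resolved. For ARF-like protein 3 it was 108%, above a counting error of 61.6% that is itself large. ARF-like protein 3 in fly 2 lay below 6 reads, the floor set for a count of 0. Floors cover counting error only.

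Tethers catch an arriving vesicle before fusion, and their unigenes were low beside the other role classes. The 18 unigenes of tethers and SNAREs had means from 3.41 to 39.9 FPKM. Their median was 11.1 FPKM, against 8.69 over all unigenes. Above the median of all unigenes lay 14 of the 18, against 50.0%, and none reached the top 10% of the table, against 9.99%. TRAPP, the trafficking protein particle, is a tether and exchange factor for Rab GTPases at the Golgi. Its 12 unigenes spanned that whole range, with a median of 10.8 FPKM. Subunit 12 (TRINITY_DN2136_c0_g1_i141) was at 47.8, 40.3 and 31.5 FPKM, the 2-like protein (TRINITY_DN6507_c0_g1_i5) at 20.6, 21.0 and 27.9, and subunit 1 (TRINITY_DN4388_c0_g1_i1) at 19.4, 16.7 and 19.5.

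Some TRAPP subunits had a larger spread between flies as deposited. Subunit 6b (TRINITY_DN2565_c0_g1_i1) was at 12.0, 6.46 and 14.4 FPKM, and subunit 5 (TRINITY_DN11327_c0_g1_i18), just under a mean of 5, at 3.92, 2.63 and 8.31. Subunit 2 (TRINITY_DN3120_c0_g1_i4) was at 20.1, 12.2 and 18.2 FPKM. Subunit 11 was in pieces, since a unigene aligned to residues 1 to 363 of its best hit (mean 3.41 FPKM) and another to residues 961 to 1270 of a different best hit (mean 6.11 FPKM). In 8 of the 12 TRAPP unigenes fly 2 was lowest, against a background of 56.9%, and in 5 of 12 after median-of-ratios scaling, against 32.9%.

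Golgins, long coiled-coil tethers, lay within this range. Golgin-84 was at 15.0 ± 1.92 FPKM, golgin subfamily A member 1 (TRINITY_DN9597_c0_g1_i15) at 12.9 ± 3.58, member 2 at 9.11 ± 1.25 and member 7 at 5.30 ± 0.63 (SD, n = 3). Despite its name, member 7 is known in mammals as a partner of a palmitoylating enzyme rather than as a coiled-coil tether. Golgi SNAP receptor complex member 1 (TRINITY_DN2305_c0_g1_i8), a SNARE of fusion within the Golgi, was at 19.7, 21.1 and 21.9 FPKM, a coefficient of variation of 5.34% beside a counting error of 5.74%. After median-of-ratios scaling its log2 SD was 0.26 in place of 0.07. Member 2 (TRINITY_DN1798_c0_g1_i7) was at 16.8, 10.1 and 15.1 FPKM.

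**Figure D3:**
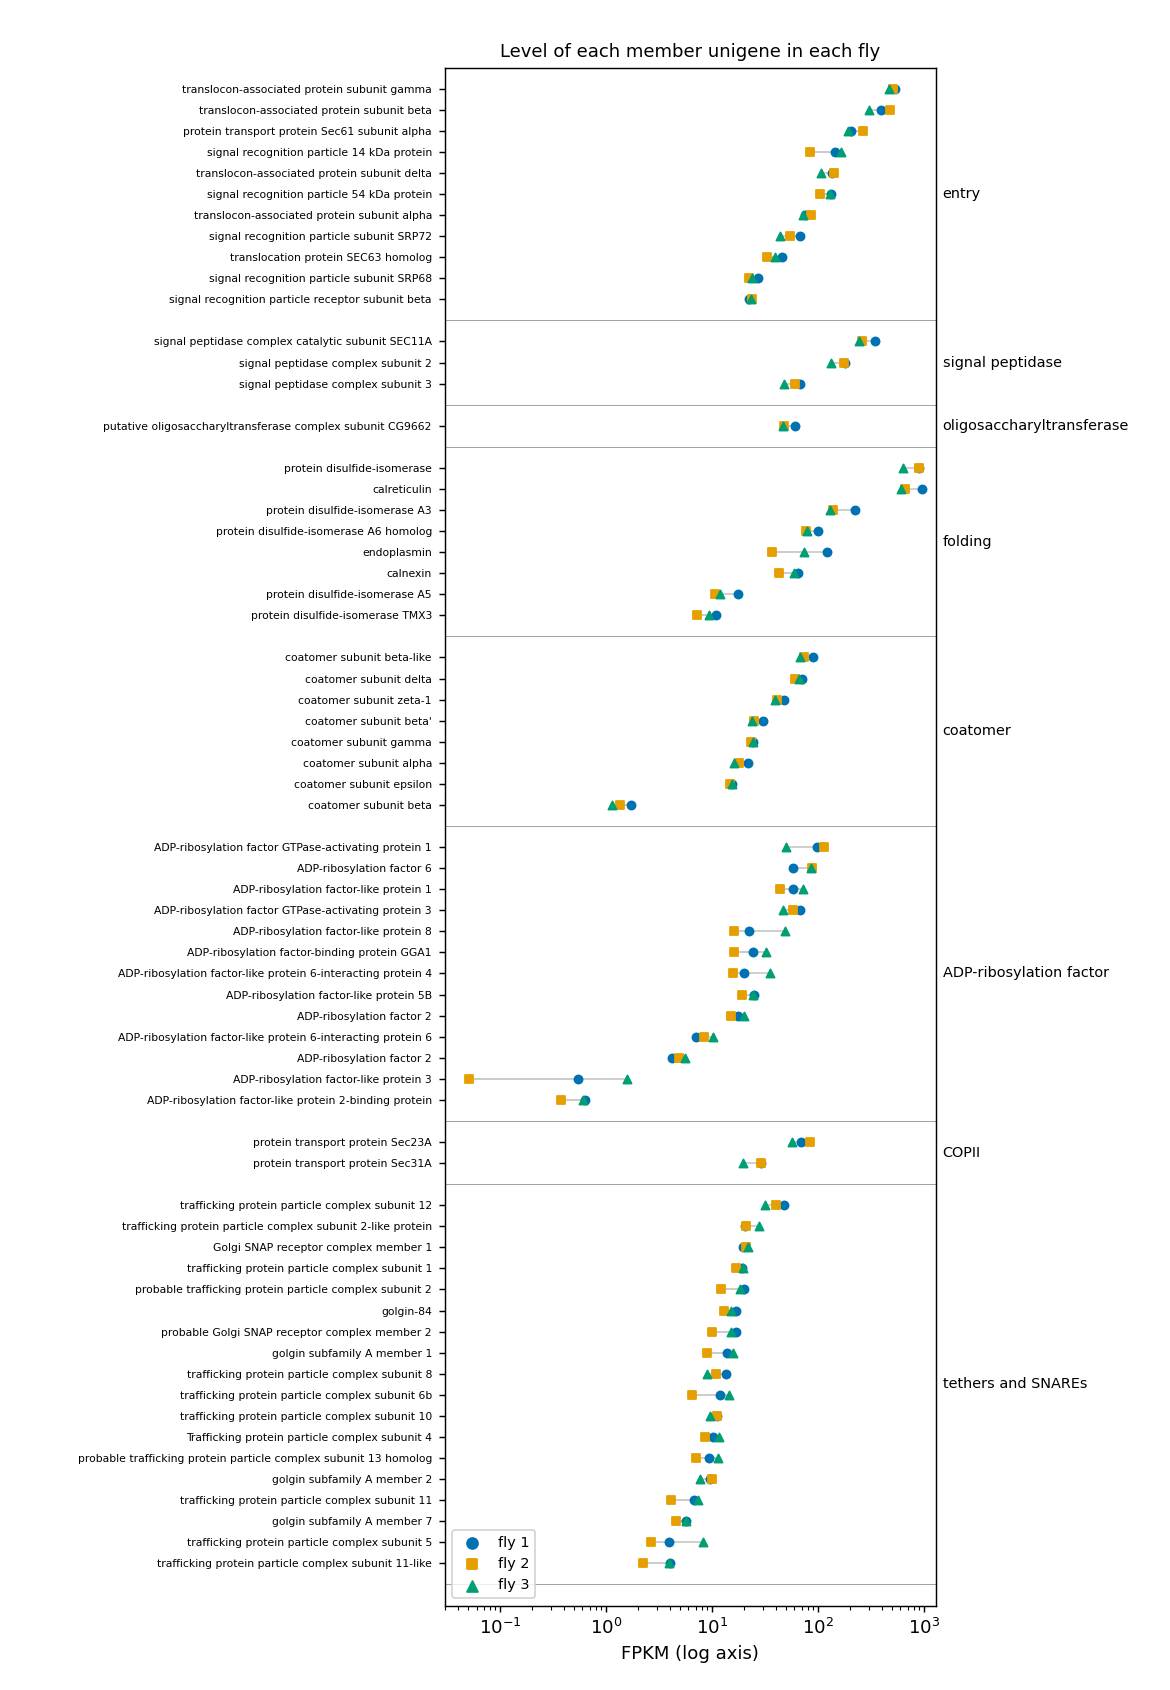
Points give the FPKM of each of the 64 member unigenes in flies 1, 2 and 3 on a log axis, grouped by role class and sorted by mean within it, with a grey line from the lowest to the highest fly. Members range from the folding factors protein disulfide-isomerase (811 FPKM on average) and calreticulin to ARF-like protein 3, whose fly 2 value rests on 2 reads.

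Differences between flies were under 2-fold for most members averaging 5 FPKM or more. Among the 58 members averaging 5 FPKM or more, 5 had flies at least 2-fold apart in FPKM + 1, where 30.3% of all 5256 such unigenes did. They were endoplasmin, ARF-like protein 8, ARF GTPase-activating protein 1, ARF-like protein 6-interacting protein 4 and TRAPP subunit 6b. At 4-fold none of the 58 was called, against 9.42% of all unigenes. After median-of-ratios scaling the counts were 9 at 2-fold, against 24.3%, and 0 at 4-fold, against 7.63%.

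The median log2 SD between flies was 0.25 for the 62 members averaging 1 FPKM or more and 0.38 for all 7384 such unigenes. That order depended on scaling, since after median-of-ratios scaling the values were 0.35 and 0.32. The members' median coefficient of variation was 18.3% and their median counting error 3.21%. Spread exceeded counting error in 60 of 64 members as deposited and in 62 after scaling. Of all 8039 unigenes, 7477 and 7324 did so, so the deposited count is near the background. By class the median log2 SD ran from 0.16 for coatomer to 0.33 for folding and 0.33 for ADP-ribosylation factors as deposited. The order changed after scaling, when it ran from 0.22 for ADP-ribosylation factors to 0.58 for COPII, with 0.33 for coatomer and 0.48 for folding. Depth was similar between libraries, at 29308867 to 33797869 recovered reads.

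**Figure D4:**
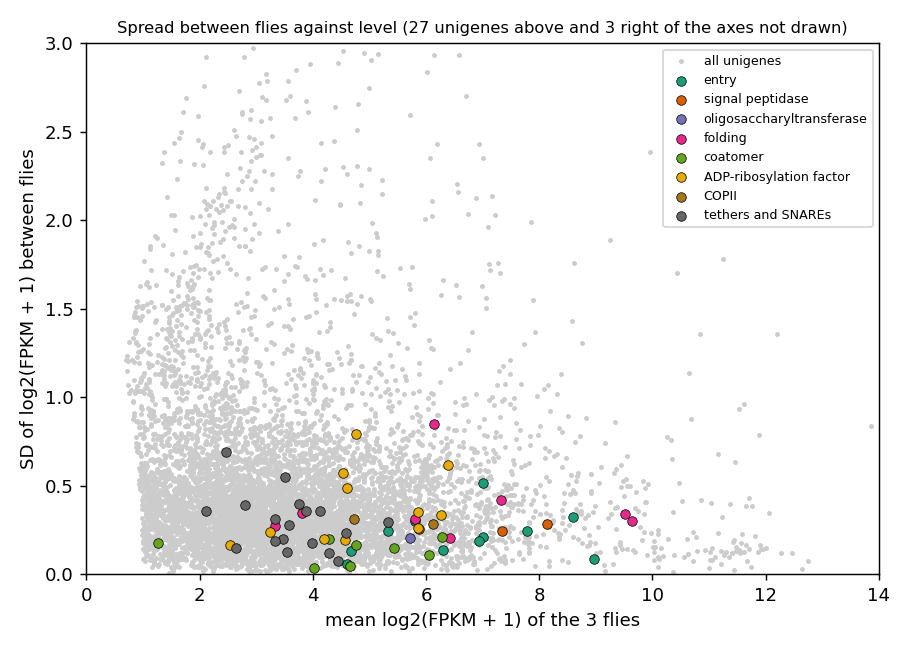
Each point is a unigene averaging 1 FPKM or more, with its mean log2(FPKM + 1) on the x axis and the SD of that value between flies on the y axis, and 62 members are coloured by role class over all unigenes in grey. Members lie low in the cloud as deposited, and endoplasmin, at an SD of 0.85, is the highest of them.

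Fly 3 differed from the others in the level of a typical unigene, and the members did not follow. The median difference between a fly and the mean of the others, in log2(FPKM + 1), came over all unigenes to -0.05, -0.33 and 0.42 for flies 1, 2 and 3. For the members it was 0.23, -0.17 and 0.01. Relative to all unigenes the members were therefore 0.28 higher in fly 1, 0.17 higher in fly 2 and 0.41 lower in fly 3. With median-of-ratios scaling the corresponding values were 0.27 higher, 0.21 higher and 0.44 lower. Restricting members and unigenes to those averaging 20 FPKM or more, a choice made after seeing the data, gave 0.27 higher, 0.20 higher and 0.51 lower. Without fly 3, flies 1 and 2 differed by 0.08 relative to all unigenes, with fly 1 higher.

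Of the 58 members averaging 5 FPKM or more, 32 were highest in fly 1, 10 in fly 2 and 16 in fly 3, where 21.5%, 13.5% and 65.0% of all such unigenes were. With median-of-ratios scaling these counts were 32, 23 and 3, against 26.8%, 38.1% and 35.1%. Fly 3 was lowest in 26 of all 64 members, against 15.9% of all unigenes, and in 46 after that scaling, against 38.0%.

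By role class and as deposited, fly 3 was lowest in 6 of 11 entry members, 3 of 3 signal peptidase members, 5 of 8 coatomer members and both COPII members, read against the same 15.9%. It was lowest in 3 of 8 folding members, 4 of 18 tethers and SNAREs and 2 of 13 ADP-ribosylation factors and relatives. With median-of-ratios scaling, read against 38.0%, the counts were 10 of 11 for entry, 3 of 3 for signal peptidase, 7 of 8 for folding, 8 of 8 for coatomer and 2 of 2 for COPII. The tethers and SNAREs then gave 11 of 18 and the ADP-ribosylation factors 4 of 13. No test of the difference between classes was made.

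**Figure D5:**
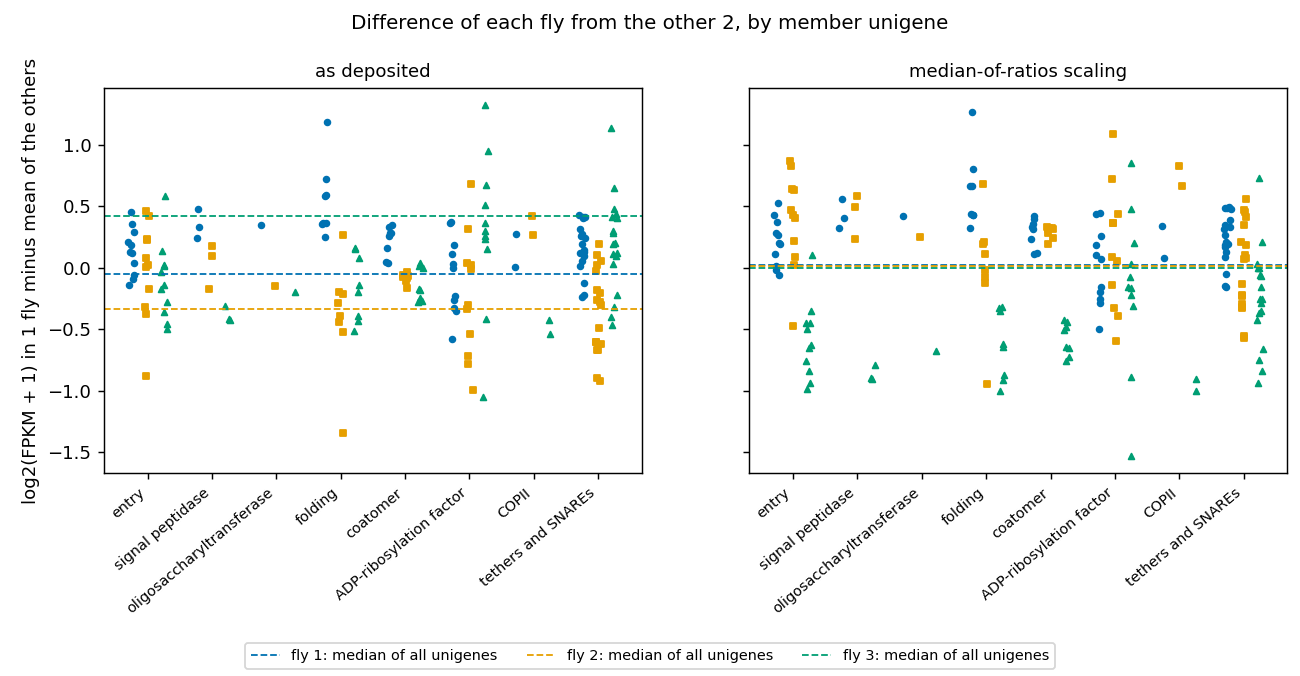
Each point is a member unigene averaging 1 FPKM or more, and its height is the log2(FPKM + 1) in 1 fly minus the mean of the other flies, as deposited on the left and after median-of-ratios scaling on the right, with dashed lines at the median of all unigenes (0.42 in fly 3 as deposited). In both panels the fly 3 points below the fly 3 line are 10 of 11 for entry, all of signal peptidase, oligosaccharyltransferase, folding, coatomer and COPII, 14 of 18 for tethers and SNAREs and 7 of 11 for ADP-ribosylation factors. The line is a median, so 3692 of all 7384 such unigenes lie below it in each panel, and 7 of 11 is near that share. Scaling moves points and line nearly alike, so the panels are not separate evidence.

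Other features of the libraries moved with these differences, and their part in them was not tested. The 10 most abundant unigenes took 33.4%, 38.2% and 24.6% of summed FPKM in the order of flies. A larger share there lowers the FPKM of all other unigenes of a fly in the same proportion. The 113 unigenes titled serine protease, trypsin or chymotrypsin summed to 145595, 210314 and 51263 FPKM, and some of the most abundant of these have a bacterial protein as best hit. These sums follow a few unigenes, the most abundant of which averaged 95287 FPKM. Most of the 113 went the other way, with 88 highest in fly 3, against 66.5% of all unigenes. After median-of-ratios scaling 83 were, against 41.1%. The 71 names of midgut enterocytes summed to 14509, 15470 and 10413 FPKM, with 5 unigenes listed at 0 in some fly. Counted by unigene, 42 of the 71 were highest in fly 3, against 66.5% of all unigenes. After scaling 32 were, against 41.1%, so both counts are near the background. Muscle, fat body, hemocyte and neuron names had their highest sums in fly 3 as deposited, where 66.5% of all unigenes were highest. The 16 muscle names summed to 872 FPKM there, against 461 and 483 in flies 1 and 2. For 10 fat body names the sums were 7.08, 24.7 and 97.6 FPKM, with a vitellogenin-1-like unigene listed at 0 in fly 1. A single apolipophorins unigene made up 0.619, 13.8 and 64.1 FPKM of them. For 12 hemocyte names the sums were 18.3, 30.6 and 119 FPKM. The 11 neuron names summed to 63.0, 60.8 and 83.2 FPKM and the 5 salivary names, highest in fly 1, to 13875, 9417 and 10427. After median-of-ratios scaling muscle, fat body and hemocyte sums stayed highest in fly 3. Neuron sums were then 64.6, 72.6 and 65.7, highest in fly 2. Muscle and neuron names include proteins of many tissues, such as non-muscle myosin.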

How the data were processed

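RNA sequencing of 3 midguts, 1 per fly, was analysed from 1 deposited table. Per the labels, TRIZOL was used for extraction and a KAPA RNA HyperPrep kit for libraries of total RNA. Per the file headers, the values are FPKM per assembled unigene, computed by the authors. Unigene names begin as those of the assembler Trinity do. Aligner, counter and filters: not given in the sources used here. Percent identity, protein lengths and alignment positions of the best hit were also deposited by the authors. Columns were matched to flies through the names in the labels' descriptions, and the column of fly 3 carries the number 4.

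FPKM is not a count, and no count model or test was used, since there is 1 group. Differences are on the log2(FPKM + 1) scale, which understates those of low unigenes. FPKM times length, divided by its smallest value above 0, gave whole reads within 0.001 for 97.1%, 97.3% and 97.3% of unigenes in flies 1 to 3, or 31922570, 33797869 and 29308867 reads. Counting errors assume fragments of 2 mates and the floor was 3 fragments. A p-value was not computed, and the spread is that between these 3 samples. Median-of-ratios size factors were 0.976, 0.838 and 1.27.

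Members and lists were chosen with earlier results of these data known. Named are the 5 members of each role class with the highest mean FPKM, the 10 with the largest and 5 with the smallest SD, and 3 of each other list. Further members are named to complete their class, and a few other genes and the subunit ratios were chosen after their values were seen. Scripts ran in Python 3.11.15 with numpy 2.4.6 and pandas 2.3.3 and were tested on simulated data.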

Additional observations from a re-analysis of the deposited data

How the results depend on the processing

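Of 225 recomputed values, 189 kept their direction and stayed within the spread between flies, or within 1.5 times for counts and for the median SD. Some of the 189 could not move. Searching every title returned the same members, so its 20 values were identical, and shares within a fly are unchanged by median-of-ratios scaling. Median-of-ratios scaling reversed the members' median shift in fly 2 (0.23 in place of -0.17) and in fly 3 (-0.45 in place of 0.01), and gave 23 members highest in fly 2 and 3 in fly 3, where 10 and 16 were as deposited. That scaling divides all unigenes of a fly by 1 number, so shifts relative to all unigenes kept their sign. The fly 3 shift was also reversed without ARF relatives (-0.018). At 2-fold, 5 members in place of 0 were variable.

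Shares depended on the denominator. Without the 10 most abundant unigenes the members held 1.23%, entry 0.403%, signal peptidase 0.118%, oligosaccharyltransferase 0.0122%, folding 0.461%, coatomer 0.0634%, ADP-ribosylation factors 0.0959%, COPII 0.0227% and tethers with SNAREs 0.0562%. Of reads, these were 1.01%, 0.240%, 0.0463%, 0.00494%, 0.484%, 0.0754%, 0.0766% and 0.0384% for the members and the classes from entry to COPII. Without ARF relatives the ADP-ribosylation factors held 0.0157%.

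Leaving out each fly in turn, the members' share ran from 0.773% to 0.878%, their median SD from 0.20 to 0.22 and their median log2 level from 4.62 to 4.75. The members' shift ran from -0.143 to 0.0641 in fly 3, so its sign was not settled, from 0.143 to 0.260 in fly 1 and from -0.260 to -0.0641 in fly 2. Relative to all unigenes it ran from 0.0842 to 0.476 in fly 1, from -0.476 to -0.466 in fly 3 and from -0.0842 (without fly 3) to 0.466 (without fly 1) in fly 2.

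No paired analysis was possible because there is 1 group. Depth limits the 3 members with under 100 reads in some fly.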
